A study of Mus musculus with 18 samples.

Results

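The nuclear genes that encode subunits of respiratory complex I were examined in leukemia stem cells, the leukemia-propagating cells sorted from mouse bone marrow. They were taken as the protein-coding genes whose symbols begin with Ndufa, Ndufb, Ndufc, Ndufs or Ndufv followed by a digit, together with Ndufab1, and numbered 38 of the 54347 genes in the count table. The MUT group was 5 C57BL/6JRj mice of the genotype Prx1-Cxcl12-mutant (mice 6, 7, 8, 10 and 12), and WT was 4 C57BL/6JRj mice of the genotype Prx1-Cxcl12-wild type (mice 1 to 4). All 9 mice carried leukemia and were taken 30 days after it was induced, and 7000 sorted cells of each went into 2 technical libraries. Prx1 names the promoter of a mesenchymal gene that is active in limb and marrow stroma, so the mutation of the chemokine gene Cxcl12 is aimed at niche cells and not at the sorted cells, and these data hold no check of it. The leukemia driver, the sort markers, the sex and age of the mice, and whether WT mice carried the Prx1 transgene were not stated in the labels.

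Complex I, or NADH:ubiquinone oxidoreductase, takes electrons from NADH in the mitochondrial matrix, passes them along iron-sulfur clusters to ubiquinone, and pumps protons across the inner membrane. Its core subunits carry out the chemistry. Those of the matrix arm are encoded in the nucleus and those of the membrane arm in mitochondrial DNA, while a larger number of nuclear accessory subunits surround and stabilise both arms. Myeloid leukemia stem cells are known for their reliance on oxidative phosphorylation.

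RNA was read from the 3' ends of polyadenylated transcripts by a bulk form of MARS-seq, and levels are given as CPM, the count of a gene per fixed number of counts of the mouse after scaling by TMM factors. Each mouse was the sum of its libraries, with totals of 15959029 to 25485899 in MUT mice and 11766467 to 16784991 in WT mice. Totals were higher in MUT (exact permutation test over every split of the mice, 2-sided p = 0.0397). Genes of myeloid progenitors were present, with Elane, a granule protease, at 2556 ± 587 CPM in MUT and 2156 ± 181 CPM in WT (SD, n = 5 and 4). The 10 progenitor and myeloid markers summed to 6441 to 11080 CPM in MUT mice and 7548 to 8429 CPM in WT mice. Of these 10, 3 had estimates of MUT over WT above 0, and 0 were called by edgeR at an adjusted p under 0.05. Their median log2 fold change was -0.18. The summed level of 8 markers of mature neutrophils was 172 to 414 CPM in MUT mice and 404 to 922 CPM in WT mice. That of 8 erythroid markers was 14.2 to 58.0 CPM in MUT mice and 5.98 to 51.4 CPM in WT mice. The sum of 8 stromal and endothelial markers was 34.6 to 48.0 CPM in MUT mice and 38.3 to 51.9 CPM in WT mice. Most of this last sum was Pecam1, at 31.6 to 46.6 CPM in MUT mice and 36.9 to 50.9 CPM in WT mice. Lepr, the next highest, averaged 0.952 CPM in MUT and 0.657 CPM in WT, and Kitl had 0 counts. Of the 8 neutrophil markers, 3 had estimates above 0 and 0 were called by edgeR at an adjusted p under 0.05. At an unadjusted p under 0.05, 2 of them were lower in MUT and 1 was higher, against 4.89% and 4.96% of all tested genes. Camp, with the highest mean of the 8, averaged 139 CPM in MUT and 386 CPM in WT (log2 fold change -1.47). Its MUT mice all lay below all WT mice, against 2.13% of all tested genes. The 3 with estimates above 0 were Ltf (log2 fold change 1.47), Mmp8 (1.08) and Retnlg (0.76). Of the 8 erythroid markers 6 were tested, all 6 with estimates above 0, and 0 were called. At an unadjusted p under 0.05, 2 of them were higher, against 4.96% of all tested genes. In 1, Car1, all MUT mice lay above all WT mice, against 1.87% of all tested genes. Car1 was near the floor, with 0, 14, 0 and 2 counts in WT mice 1 to 4. The 6 megakaryocyte markers summed to 21.6 to 33.2 CPM in MUT mice and 30.2 to 41.1 CPM in WT mice, and Itga2b, an integrin of that lineage, was called lower in MUT (log2 fold change -1.89, edgeR quasi-likelihood, Benjamini-Hochberg adjusted p = 0.0427). The progenitor marker Kit (log2 fold change -0.43) and the macrophage marker Adgre1 (-0.53) were not called. Both had all MUT mice below all WT mice, as did 2.13% of all tested genes. Of the 3 tested macrophage markers, 2 had estimates above 0, and their median log2 fold change was 0.02. In bulk RNA, fewer cells of a type and less RNA per cell cannot be told apart, and the part of such cells in the results below was not tested.

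Of the 38 complex I genes, 37 passed the filter on low counts among 12973 tested genes. By role, 7 were core subunits, 10 accessory subunits of the matrix arm, 19 accessory subunits of the membrane arm, and 2 are not parts of the mature complex. The group means of the tested members lay between 31.1 and 524 CPM, and the lowest count of a tested member in any mouse was 356. No member was called higher or lower in MUT by edgeR's quasi-likelihood test at a Benjamini-Hochberg adjusted p under 0.05, against 0.0231% of all tested genes called higher and 0.0462% called lower. DESeq2 and limma-voom also called 0 members. Unadjusted p-values under 0.05 were found for 3 members higher in MUT, a share of 8.11% against 4.96% of all tested genes, and 0 were lower, against 4.89%. The same 3, Ndufv1, Ndufa9 and Ndufa10, were the members whose MUT mice all lay above all WT mice, against 1.87% of all tested genes. Of the 3782 tested genes in the members' range of mean CPM, 235 were higher in MUT at an unadjusted p under 0.05. In that range, 2.43% had all MUT mice above all WT mice. No member had all MUT mice below all WT mice, against 2.13%.

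Differences between the groups were small. Log2 fold changes of MUT over WT ran from -0.13 to 0.46, which is 0.915-fold to 1.38-fold, and 29 of the 37 lay within 0.2 of 0. For 31 of the 37, the whole 95% interval of the log2 fold change lay between -0.5 and 0.5, so a change of 1.41-fold or more in either direction was outside it. The remaining intervals were wider, with standard errors up to 0.33. The estimate was above 0 for 28 of the 37 members, 75.7% against 51.7% of all tested genes. Among the tested genes in the same range of mean CPM as the members, the share was 56.3%. The median log2 fold change was 0.06 over the members, against 0.01 over all tested genes and 0.02 over the 3782 tested genes in the same range of mean CPM. The median was 0.07 for the core subunits, 0.07 for the matrix arm and 0.06 for the membrane arm. Since the groups differed in total count, the fit was repeated with the log2 total as a covariate. The median of the members was then -0.08 with 12 of 37 above 0, while that of all genes was 0.00. This covariate is partly bound up with the group. With each mouse thinned to the smallest total instead, the median of the members was 0.06, with 28 of 37 above 0. With library 1 of each mouse alone the median was 0.17, with 31 of 37 members above 0, and with library 2 alone it was -0.035, with 13 above 0. The sign of the median turned with the covariate and with library 2 alone.

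**Figure D1:**
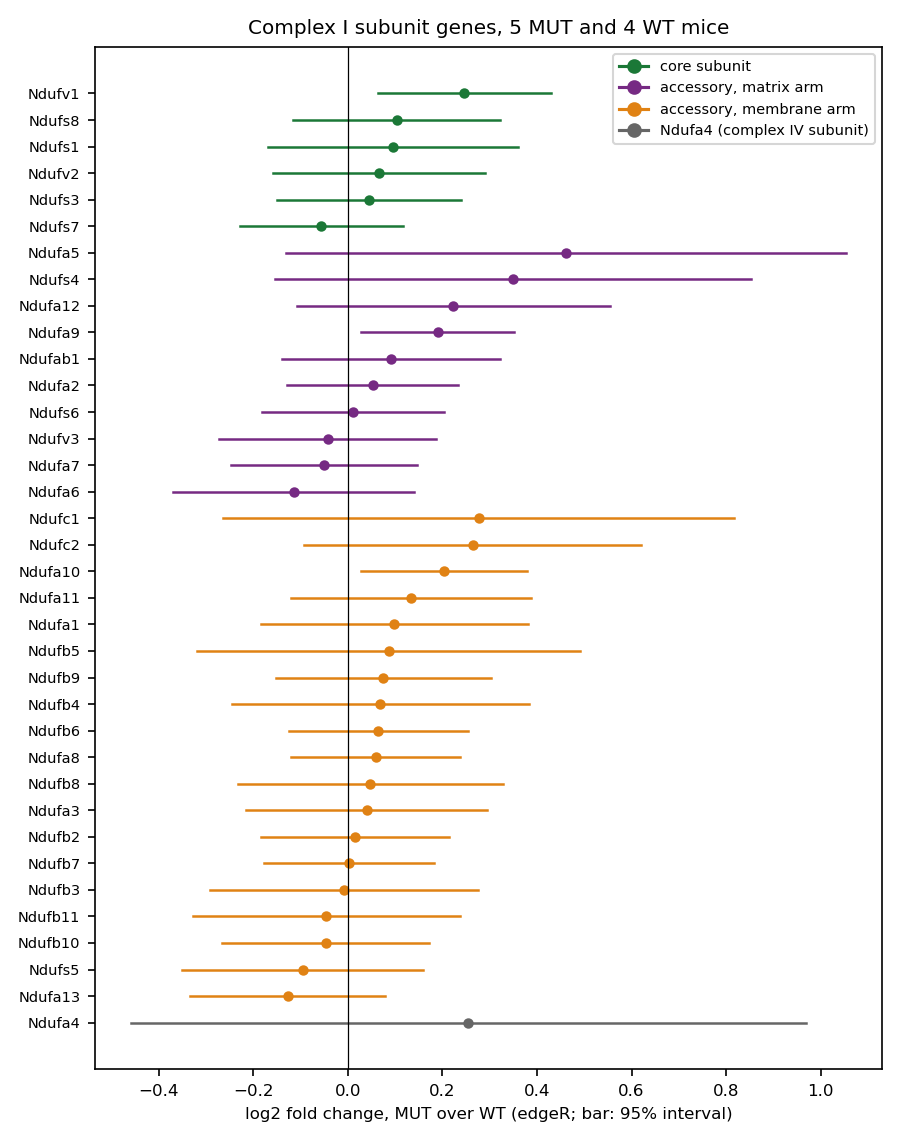
Log2 fold change of MUT over WT for 36 tested members, ordered by role and then by estimate (points, edgeR; bars, 95% intervals; 5 MUT and 4 WT mice). The intervals of Ndufv1, Ndufa9 and Ndufa10 lie above 0 before any adjustment, and those of Ndufa4 and Ndufa5 are among the widest.

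The core subunits begin with the module that oxidises NADH. Ndufv1, which holds the flavin and the NADH site (chr19:4007384-4012806 in GRCm38, minus strand), had 76.4, 78.1, 82.3, 79.8 and 81.5 CPM in MUT mice 6, 7, 8, 10 and 12, against 60.0, 64.7, 68.0 and 75.7 CPM in WT mice 1 to 4. The lowest MUT mouse stood just above the highest WT mouse, and the MUT mice were the more alike. Means were 79.6 ± 2.41 CPM in MUT and 67.1 ± 6.58 CPM in WT (SD, n = 5 and 4). The log2 fold change was 0.25 (SE 0.08), with a 95% interval of 0.06 to 0.43 (edgeR quasi-likelihood p = 0.0125, Benjamini-Hochberg adjusted p = 0.369). The exact permutation test gave 0.00794, the smallest p that this design allows, and 0.364 after adjustment over all tested genes. Over the 22 alternative settings the log2 fold change of Ndufv1 stayed between 0.17 and 0.36, with an adjusted p of 0.264 to 0.982. It was 0.20 without WT mouse 1, the lowest of its group.

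Ndufv2, the iron-sulfur partner of Ndufv1 in the same module, had 134, 143, 139.6, 138 and 115 CPM in MUT mice and 107, 128, 143 and 134 CPM in WT mice. Its groups overlapped, with a log2 fold change of 0.07 (SE 0.10). Ndufs1, the large subunit that carries electrons onward through several iron-sulfur clusters, had 35.6, 37.9, 29.3, 33.1 and 30.1 CPM in MUT mice and 28.1, 32.9, 37.4 and 26.0 CPM in WT mice, with a log2 fold change of 0.10 (SE 0.12). Ndufs1 overlaps Eef1b2 on the opposite strand. That gene had 398620 counts over the 18 libraries against 5310 for Ndufs1. How the counting treated strand is not stated, and where the genes overlap was not examined. Whether reads of Eef1b2 entered the Ndufs1 level is therefore uncertain.

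Other core subunits form the module that hands electrons to ubiquinone. Ndufs3, a subunit of this module, had 71.4, 77.0, 77.6, 87.4 and 65.9 CPM in MUT mice and 74.2, 74.4, 71.5 and 74.1 CPM in WT mice, and its log2 fold change was 0.04 (SE 0.09). Its WT mice lay inside the range of its MUT mice. Ndufs7, which holds the last iron-sulfur cluster before ubiquinone, had 95.7, 101, 107, 107 and 104 CPM in MUT mice and 99.99, 107, 116 and 105 CPM in WT mice (log2 fold change -0.06, SE 0.08). Ndufs8, which carries the clusters just before it, had 223, 195, 221, 243 and 215 CPM in MUT mice and 182, 206, 237 and 192 CPM in WT mice (log2 fold change 0.10, SE 0.10). None of these genes was called. Of the 7 core genes, Ndufv1 was the one whose groups did not overlap, and 6 had an estimate above 0.

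Among the accessory subunits of the matrix arm, Ndufa9 binds a nucleotide near the junction of the arms. Ndufa9 (chr6:126821721-126849136, minus strand) had 46.7, 44.3, 50.1, 47.5 and 48.5 CPM in MUT mice, against 41.1, 42.2, 39.9 and 43.1 CPM in WT mice. All 5 MUT mice lay above all 4 WT mice by a narrow margin. Means were 47.4 ± 2.15 CPM in MUT and 41.6 ± 1.38 CPM in WT (SD, n = 5 and 4), and the log2 fold change was 0.19 (SE 0.07; edgeR quasi-likelihood, Benjamini-Hochberg adjusted p = 0.417; exact permutation p = 0.0159, 0.398 adjusted over all tested genes). It stayed between 0.17 and 0.21 over the 22 alternative settings, with an unadjusted p under 0.05 in 16 of them.

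Ndufa5 and Ndufs4 had the largest estimates of the members and wide spreads. Ndufa5, a helical subunit of the matrix arm, had 66.9, 89.1, 58.7, 52.8 and 27.6 CPM in MUT mice, against 31.8, 46.5, 58.0 and 35.3 CPM in WT mice. MUT mouse 12 was the lowest of all 9 mice and MUT mouse 7 the highest. Its log2 fold change of 0.46 had an SE of 0.27 (edgeR quasi-likelihood, Benjamini-Hochberg adjusted p = 0.594). Without MUT mouse 7 the estimate was 0.27, and with the log2 total as a covariate it was -0.20. The technical libraries of MUT mouse 7 differed for this gene, with 117 CPM in library 1 and 48.3 CPM in library 2. Ndufs4, whose loss in mice causes a fatal encephalopathy like human Leigh syndrome, had 85.3, 94.4, 78.3, 77.2 and 40.9 CPM in MUT mice and 40.1, 54.8, 82.3 and 59.1 CPM in WT mice. MUT mouse 12 and WT mouse 1 were again the low ones, and the groups overlapped. The log2 fold change of Ndufs4 was 0.35 (SE 0.23; edgeR quasi-likelihood, Benjamini-Hochberg adjusted p = 0.641), and it was 0.20 without WT mouse 1, 0.55 without WT mouse 3 and -0.17 with the log2 total as a covariate.

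The most negative estimates of the matrix arm were those of Ndufa6 and Ndufa7, and neither passed the test. Ndufa6, an LYR-motif protein that binds the acyl carrier protein Ndufab1, averaged 347 ± 31.6 CPM in MUT and 376 ± 61.8 CPM in WT (SD, n = 5 and 4; log2 fold change -0.11, SE 0.12). Ndufa7 averaged 262 ± 16.4 CPM in MUT and 272 ± 24.3 CPM in WT (SD, n = 5 and 4; log2 fold change -0.05, SE 0.09). Their groups overlapped. Of the 10 members of this arm, 7 had an estimate above 0, and 1, Ndufa9, had groups that did not overlap.

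In the membrane arm, Ndufa10 faces the matrix and is related to nucleoside kinases. Ndufa10 (chr1:92439010-92473860, minus strand) had 120.2, 124, 139, 129 and 125 CPM in MUT mice, against 107, 111, 106 and 118 CPM in WT mice. MUT mouse 6, the lowest of MUT, stood just above WT mouse 4, the highest of WT. Means were 127 ± 7.10 CPM in MUT and 111 ± 5.79 CPM in WT (SD, n = 5 and 4), with a log2 fold change of 0.20 (SE 0.08; edgeR quasi-likelihood, Benjamini-Hochberg adjusted p = 0.427; exact permutation p = 0.00794, 0.364 adjusted over all tested genes). Over the 22 alternative settings its log2 fold change was 0.14 to 0.24, with an unadjusted p under 0.05 in 15 of them. Ndufc2, a small membrane subunit, had 379.6, 324, 226, 284 and 286 CPM in MUT mice and 191, 249, 321 and 238 CPM in WT mice. MUT mouse 6 was the highest and WT mouse 1 the lowest, and the log2 fold change was 0.26 (SE 0.16; edgeR quasi-likelihood, Benjamini-Hochberg adjusted p = 0.616).

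The most negative estimate was that of Ndufa13, also known as Grim19, which links the membrane arm to the ubiquinone module. It had 475, 406, 490.3, 514 and 487 CPM in MUT mice and 465, 546, 549 and 515 CPM in WT mice. MUT mouse 7 was the lowest, and the groups overlapped through WT mouse 1. The log2 fold change was -0.13 (SE 0.10; edgeR quasi-likelihood, Benjamini-Hochberg adjusted p = 0.683). Ndufs5, which sits on the intermembrane side, averaged 209 ± 18.8 CPM in MUT and 224 ± 35.9 CPM in WT (SD, n = 5 and 4; log2 fold change -0.10, SE 0.12). Ndufb10, on the same side, averaged 507 ± 57.5 CPM in MUT and 524 ± 33.4 CPM in WT (SD, n = 5 and 4; log2 fold change -0.05, SE 0.10). Of the 19 members of the membrane arm, 14 had an estimate above 0. Ndufa10 was the 1 whose groups did not overlap.

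**Figure D2:**
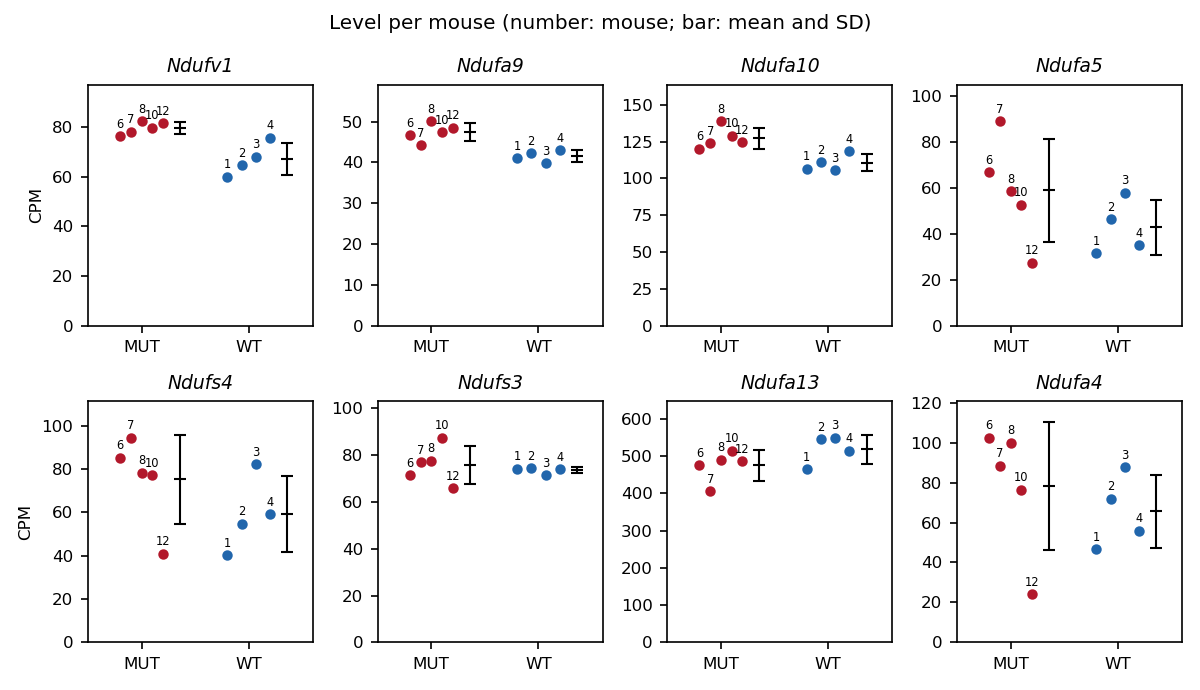
Level of 8 members in each mouse in CPM, MUT mice left and WT mice right, each axis starting at 0 (points, numbered by mouse; bars, mean and SD). The MUT mice of Ndufv1, Ndufa9 and Ndufa10 lie above their WT mice by small steps, while for Ndufa5, Ndufs4 and Ndufa4 MUT mouse 12 falls away from the other MUT mice.

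Both genes outside the mature complex match the naming rule only. Ndufa4, now assigned to cytochrome c oxidase, had 102, 88.5, 99.98, 76.4 and 24.0 CPM in MUT mice, against 46.7, 72.0, 87.8 and 55.9 CPM in WT mice. It varied the most of the members between mice of a group, with a biological coefficient of variation of 34.2%, and MUT mouse 12 was far below the rest. Its log2 fold change was 0.25 (SE 0.33; edgeR quasi-likelihood, Benjamini-Hochberg adjusted p = 0.826), and 0.48 without MUT mouse 12. Ndufa4l2, a hypoxia-induced relative of Ndufa4, had 0 counts in every MUT mouse and in WT mice 1 to 3, and 2 counts in WT mouse 4. A count of 0 allows up to 3 counts, which is 0.118 to 0.188 CPM in the MUT mice. This covers counting error only.

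Some genes named like subunits were left out because the annotation does not class them as protein-coding. Ndufb1-ps, which RefSeq lists as the coding gene of subunit Ndufb1, averaged 82.9 ± 17.4 CPM in MUT and 79.0 ± 7.93 CPM in WT (SD, n = 5 and 4; log2 fold change 0.07, SE 0.14). Ndufb4c, a processed copy of Ndufb4 with 100% identity over 390 bases, held 13413 counts over the 9 mice, 41.8% of the 32063 of Ndufb4. How reads were split between these copies is uncertain. Their log2 fold changes were 0.07 for Ndufb4c (SE 0.16) and 0.07 for Ndufb4 (SE 0.14). Near-identical copies of 7 other members held at most 0.112% of the member's counts. Of the 38 members, 20 overlap another annotated gene.

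The members differed in how steady they were. Their median biological coefficient of variation was 13.1%, against 16.2% for all tested genes and 12.3% for the tested genes in the same CPM range. It was under 12% for 13 members, down to 9.39% for Ndufa9. It was above 20% for 5 members, singled out after their values were seen: Ndufa4, Ndufa5 (28.3%), Ndufc1 (26.4%), Ndufs4 (24.5%) and Ndufb5 (20.5%). Technical libraries of a mouse differed by a median of 0.16 on the log2 scale over the members and 0.17 over the genes of the same range. The median SD within groups was 0.15 on the log2 scale for both.

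The mice also differed in the members as a set. Over the 36 tested members that are subunits of the complex, summed CPM was 8742, 8305, 8839, 8920 and 7694 in MUT mice 6, 7, 8, 10 and 12, against 7362, 8457, 9214 and 8081 in WT mice 1 to 4. The groups overlapped, with MUT mouse 12 lowest in MUT, and WT mouse 1 lowest and WT mouse 3 highest in WT. MUT mouse 12 was the lowest MUT mouse for 17 of the 36 genes, 47.2% against 22.4% of all tested genes. WT mouse 1 was the lowest WT mouse for 27 of the 36, against 28.5% of all tested genes, and WT mouse 3 the highest for 26. In the membrane arm, WT mouse 1 was lowest for 17 of 19 genes.

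**Figure D3:**
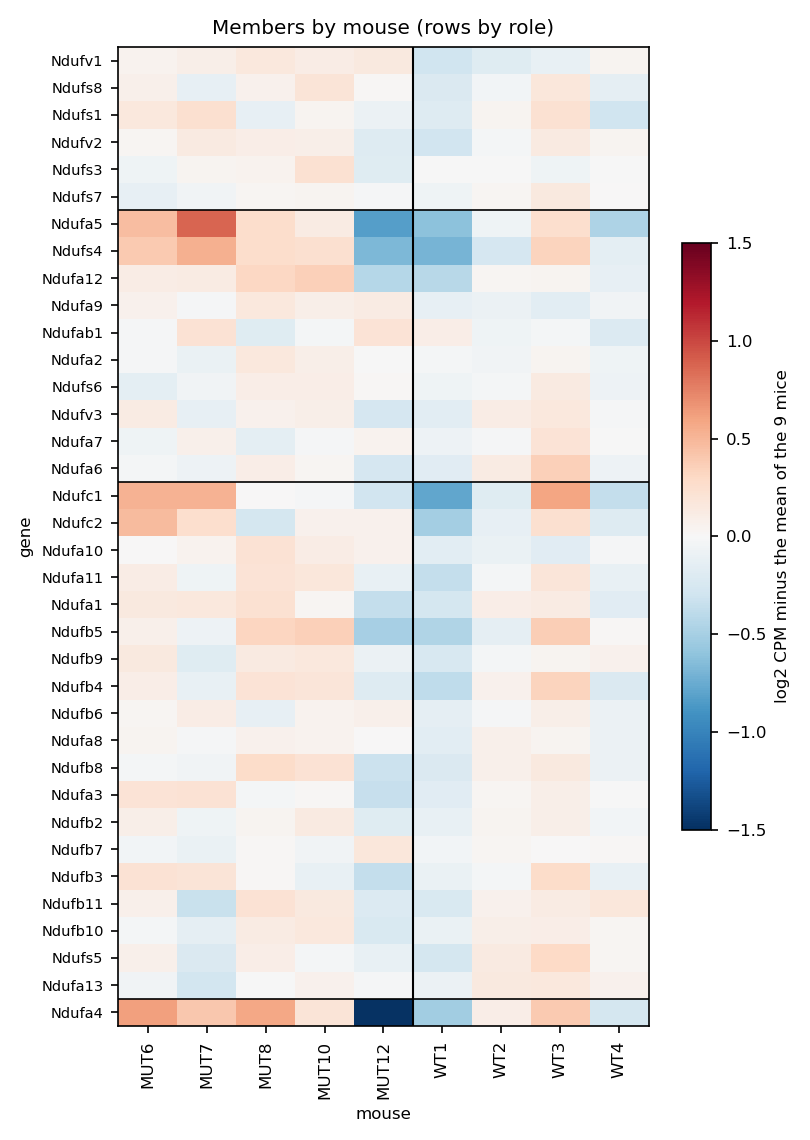
Log2 CPM of 36 tested members (down the page, ordered by role) in each mouse (MUT left, WT right) minus the gene's mean over the 9 mice. MUT mouse 12 and WT mouse 1 have mostly negative values and WT mouse 3 mostly positive ones, in each role.

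MUT mouse 12 and WT mouse 1 were each low for most members. MUT mouse 12 was below the mean of the other MUT mice for 28 of the 37 tested members. WT mouse 1 was below the mean of the other WT mice for 33, and both held for 25. Unrelated counts of 28 and 33 out of 37 would overlap by about that many genes, so the 25 shows no sharing by itself. Over all 12973 tested genes the counts were 6233, 6482 and 3782. The median difference was -0.21 on the log2 scale in MUT mouse 12 and -0.21 in WT mouse 1, against 0.01 and 0.00 over all tested genes. Across the 37 members, the differences in the 2 mice had a Spearman rho of 0.69, and across all 12973 tested genes one of 0.28. These are correlations over genes of single mice, whose sums also hold the fewest counts of their groups. The 2 mice were singled out after their low values were seen. Mean levels reached down to 0.369 CPM over all tested genes and to 32.3 CPM over the members. No rho was taken over the genes in the members' range of mean CPM, so the 2 values of rho are not matched for level. The libraries of MUT mouse 12 differed, with a median deviation of 0.07 in the first and -0.23 in the second, while both libraries of WT mouse 1 were low, at -0.23 and -0.14. For Ndufa5, Ndufs4 and Ndufa4, where MUT mouse 12 was the lowest MUT mouse, both of its libraries were low, with 23.8 and 30.6 CPM for Ndufa5, 37.5 and 43.7 CPM for Ndufs4 and 23.4 and 24.9 CPM for Ndufa4.

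The count at an unadjusted p under 0.05 rested on these mice. Without MUT mouse 12, 7 members were higher in MUT at that level and the median log2 fold change was 0.10. Without WT mouse 3 the count was 5. Without WT mouse 1 it was 0 and the median was 0.01, and without both MUT mouse 12 and WT mouse 1, a setting added after the data were seen, it was 4 and the median 0.05. The shares of all tested genes at that level in these fits are not given here, and in the main fit 4.96% were higher. No member was called at an adjusted p under 0.05 in any of these fits by edgeR's quasi-likelihood test.

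**Figure D4:**
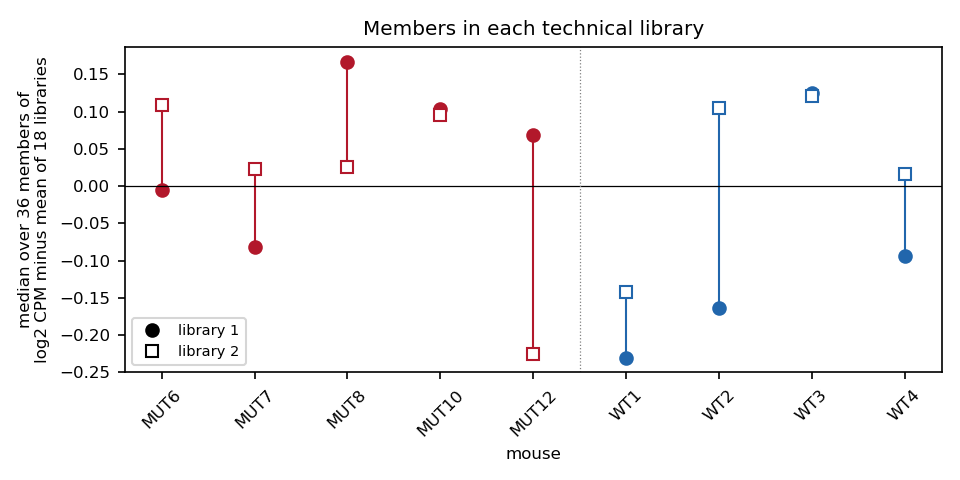
Median over the 36 complex I subunit genes of log2 CPM minus the gene's mean over the 18 libraries, for library 1 (filled circles) and library 2 (open squares) of each mouse, MUT left and WT right. The libraries of MUT mouse 12 and of WT mouse 2 stand far apart, at 0.07 and -0.23 and at -0.16 and 0.10.

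The membrane-arm core subunits come from mitochondrial DNA. Of the 7 mt-Nd genes, 6 were tested, 0 were called, and all 6 had estimates below 0, with a median log2 fold change of -0.37. This median was -0.035 with library 1 alone, -0.11 with the log2 total as a covariate and -0.21 without WT mouse 2. mt-Nd1, the subunit next to the ubiquinone site, had 201, 82.3, 228, 219 and 237 CPM in MUT mice and 145, 259, 274 and 159 CPM in WT mice (log2 fold change -0.11, SE 0.28). mt-Nd2, a proton-pumping subunit, had 44.2, 11.9, 47.8, 35.9 and 43.1 CPM in MUT mice and 43.8, 80.9, 73.0 and 26.4 CPM in WT mice (log2 fold change -0.62, SE 0.37). MUT mouse 7 was the lowest mouse for both, and in it all mitochondrial genes held 0.0701% of counts, against 0.169% to 0.234% in the other MUT mice and 0.161% to 0.263% in WT mice. The pumping subunits mt-Nd4 and mt-Nd5 had log2 fold changes of -0.25 (SE 0.24) and -0.33 (SE 0.20), mt-Nd3 -0.51 (SE 0.48) and mt-Nd4l -0.42 (SE 0.32). mt-Nd6 was under the filter on low counts, at 0.253 ± 0.152 CPM in MUT and 0.363 ± 0.227 CPM in WT (SD, n = 5 and 4). Without MUT mouse 7 the log2 fold change of mt-Nd1 was 0.08.

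Assembly factors build the complex and leave it before it is mature. Of the 16 tested, 0 were called, 12 had estimates above 0, and the median log2 fold change was 0.10. Acad9, which helps assemble the membrane arm, had 22.0, 24.0, 18.7, 21.4 and 21.1 CPM in MUT mice and 21.6, 16.3, 18.1 and 17.7 CPM in WT mice (log2 fold change 0.22, SE 0.11). Foxred1, a factor of the same process, averaged 51.6 ± 9.23 CPM in MUT and 43.2 ± 4.20 CPM in WT (SD, n = 5 and 4; log2 fold change 0.26, SE 0.13). The groups of both genes overlapped.

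The substrate of the complex, ubiquinone, is made by the Coq and Pdss enzymes. Of the 13 tested, 0 were called, 7 had estimates above 0, against 51.7% of all tested genes, and 2 had MUT mice all above WT mice, against 1.87% of all tested genes. Coq3, a methyltransferase of this pathway, had 20.9, 22.6, 20.4, 19.9 and 24.7 CPM in MUT mice and 15.3, 17.4, 15.3 and 18.3 CPM in WT mice. Its log2 fold change was 0.38 (SE 0.11; edgeR quasi-likelihood, Benjamini-Hochberg adjusted p = 0.273). Pdss2, a subunit of the enzyme that makes the isoprenoid tail, averaged 6.65 ± 0.664 CPM in MUT and 4.93 ± 0.553 CPM in WT (SD, n = 5 and 4). The edgeR quasi-likelihood fit gave Pdss2 a log2 fold change of 0.44 (SE 0.14, Benjamini-Hochberg adjusted p = 0.351).

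Of 10 genes for other enzymes that reduce ubiquinone, 0 were called and 6 had estimates above 0. Chdh, choline dehydrogenase, averaged 28.3 ± 4.78 CPM in MUT and 35.0 ± 2.84 CPM in WT (SD, n = 5 and 4; log2 fold change -0.31, SE 0.12). Sqor, which oxidises sulfide, averaged 29.9 ± 3.73 CPM in MUT and 36.2 ± 5.86 CPM in WT (SD, n = 5 and 4; log2 fold change -0.27, SE 0.13).

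Of 8 genes for mitochondrial NAD supply, the malate-aspartate shuttle, transhydrogenation and subunit import, 0 were called and 8 had estimates above 0. Slc25a12, an aspartate-glutamate carrier of the malate-aspartate shuttle, had 81.1, 89.0, 76.7, 88.1 and 74.2 CPM in MUT mice, all above the 63.7, 72.4, 61.2 and 67.7 CPM of WT mice (log2 fold change 0.31, SE 0.09; edgeR quasi-likelihood, Benjamini-Hochberg adjusted p = 0.307). Aifm1, which supports import of complex I subunits, averaged 43.9 ± 3.50 CPM in MUT and 38.6 ± 4.91 CPM in WT (SD, n = 5 and 4; log2 fold change 0.19, SE 0.10).

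Promoter windows were compared for letters that the members share, 250 bases before to 50 after each RefSeq gene start (GRCm38.p6). Windows were matched for 33 of the 38 members. The letters of nuclear respiratory factor NRF1, GCGC and TGCGC with any 1 base between them, searched on both strands, occurred in 7 of the 33 genes (21.2%), against 5.19% of 27025 genes. The YY1 core AAGATGGC occurred in 7 (21.2%), against 3.19% of all genes, and its longer form, the core followed by GGC, in 4 (12.1%), against 0.755%. The ETS letters CCGGAAG were in 4 (12.1%), against 9.93% of all genes, and the ERRA letters TNAAGGTCA in 1 (3.03%), against 1.43%. The median G and C content was 59% in the 35 windows of members and 52.7% in all windows, and its part in these shares was not tested.

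The windows of Ndufa9, whose groups did not overlap, and of Ndufs4 and Ndufa5, the pair with the largest estimates, are shown, since they carry the shared letters near a gene start. Each reads 5' to 3' along the gene from RefSeq (GRCm38.p6), and capitals mark the match. Ndufa9 (chr6:126849095-126849394, minus strand) and Ndufs4 (chr13:114388045-114388344, minus strand) have the YY1 core 30 and 36 bases after the start. Ndufa5 (chr6:24527641-24527940, minus strand) has the NRF1 letters 26 bases before it, on the opposite strand. From another RefSeq start of Ndufa5, whose window is not shown, these letters lie 190 bases before the start.
Ndufa9: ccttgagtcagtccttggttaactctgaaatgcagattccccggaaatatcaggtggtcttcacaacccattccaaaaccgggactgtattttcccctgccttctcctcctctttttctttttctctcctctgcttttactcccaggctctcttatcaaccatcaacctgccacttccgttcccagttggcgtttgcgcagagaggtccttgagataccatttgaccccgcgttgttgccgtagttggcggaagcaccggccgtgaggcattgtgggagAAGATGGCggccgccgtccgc
Ndufs4: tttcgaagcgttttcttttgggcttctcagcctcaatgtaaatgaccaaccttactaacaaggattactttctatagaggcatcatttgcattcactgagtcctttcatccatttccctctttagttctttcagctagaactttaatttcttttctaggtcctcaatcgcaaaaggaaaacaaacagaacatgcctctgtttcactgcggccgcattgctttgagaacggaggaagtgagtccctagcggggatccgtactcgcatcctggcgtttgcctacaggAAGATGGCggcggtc
Ndufa5: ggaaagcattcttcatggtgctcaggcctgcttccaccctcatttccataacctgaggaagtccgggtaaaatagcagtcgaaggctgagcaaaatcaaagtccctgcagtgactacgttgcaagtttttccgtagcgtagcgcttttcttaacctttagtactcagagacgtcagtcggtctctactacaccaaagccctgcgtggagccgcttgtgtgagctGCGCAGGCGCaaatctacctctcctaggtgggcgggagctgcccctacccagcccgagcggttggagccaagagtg
A match is a description of the letters, with no measure of binding in these data. The windows of Ndufv1 and Ndufa10, the other members whose groups did not overlap, held none of the letters searched.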

How the data were processed

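RNA of sorted cells was read by 3'-end MARS-seq adapted to bulk and a NextSeq 500 sequencer, as the protocols in the labels state. From these reads the authors deposited estimated counts for 54347 genes in 18 libraries. Salmon 1.3, bcl2fastq, FastQC and the build GRCm38 are named in the submitters' processing notes. Strand setting, molecular identifiers and annotation release are not given, and 11.3% of the values were not whole. Symbols and positions came from GENCODE vM21 by the first 18 characters of the identifier, which matched 54094 genes. The other 253 held 0.00977% of the counts.

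Expected counts were added over the 2 libraries of each mouse, then rounded. Library totals were 3825500 to 15071673. The quasi-likelihood F-test of edgeR 4.0.16 (R 4.3.3) compared 5 MUT with 4 WT mice, with TMM factors and a filterByExpr minimum of 10 counts, after it was tested on simulated data. Benjamini-Hochberg adjustment ran over 12973 genes. SE is the unshrunk log2 coefficient over the square root of F, and 95% intervals use its t quantile. Exact permutation tests were 2-sided over every split of 5 against 4 mice on log2 CPM with a prior count of 2. All mice are separate animals. Alternatives included DESeq2 1.42.0 and limma-voom (limma 3.58.1).

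Genes named with values were core genes, the 6 members with the smallest p in each direction, symbol matches outside the complex, the mt-Nd genes, and the 2 genes with the smallest p of the assembly, ubiquinone and redox lists. A gene of the set is counted but not reported here by name. The members and lists were chosen with earlier results of these data known. Near-identical copies were transcripts with at least 95% identity over 200 bases.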

Additional observations from a re-analysis of the deposited data

Results flagged for a closer look

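Among 62 combinations of a named gene and a group, 3 had 1 mouse that stood apart from its group by Dixon's criterion, which chance alone meets in about 1 group in 20. For the core subunit Ndufs3, WT mouse 3 had 71.5 CPM and the other WT mice 74.1 to 74.4 CPM, a narrow range in which a small step sufficed. For mt-Nd1, MUT mouse 7 had 82.3 CPM and the other MUT mice 201 to 237 CPM. For Aifm1, MUT mouse 7 had 50.0 CPM and the other MUT mice 41.2 to 43.6 CPM.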

How the results depend on the processing

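No member was called under any alternative. Of 374 values of 17 named members under 22 alternatives, 16 changed sign, in 9 members, none of them called in either setting, and the causes were not tested. With the log2 total as a covariate, 0 members were higher at an unadjusted p under 0.05, 12 were above 0, and medians were -0.083 over members, -0.073 for the matrix arm and -0.098 for the membrane arm, with log2 fold changes of -0.018 for Ndufs3, -0.13 for Ndufv2, -0.20 for Ndufa5, -0.17 for Ndufs4, -0.45 for Ndufa4, 0.0041 for mt-Nd1, 0.31 for mt-Nd3 and 0.0074 for mt-Nd4. With library 1 alone, 1 member had MUT mice all above WT mice, 31 were above 0, the member median was 0.17, the matrix arm median was 0.20, and log2 fold changes were -0.0069 for Ndufv2, 0.0094 for Ndufa13, 0.0067 for Ndufa7, 0.21 for mt-Nd1, 0.22 for mt-Nd4 and 0.064 for mt-Nd5. With library 2 alone, 1 member had MUT mice all above WT mice, 1 was lower at an unadjusted p under 0.05, 13 were above 0, the member median was -0.035, and log2 fold changes were -0.0056 for Ndufs8 and -0.16 for Ndufa4. Thinning each mouse to the smallest total left 1 member with MUT mice all above WT mice, with 28 members above 0 and a member median of 0.059. Without the first library of MUT mouse 7, Ndufb10 was 0.0084. Without the second library of MUT mouse 12, an alternative added after the data were seen, Ndufa7 was 0.032.

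Over all tested genes, 3 were called higher and 6 lower in MUT. DESeq2 called 36 higher and 54 lower, and no low-count filter 9 higher and 12 lower. The filter at a mean of 10 CPM, library 1 alone, the covariate, and leaving out the first library of MUT mouse 7 each gave 0 higher and 0 lower. Library 2 alone gave 1 lower and thinning 0 lower. Of the settings added after the data were seen, leaving out the second library of MUT mouse 12 gave 3 lower, and leaving out MUT mouse 12 with WT mouse 1 gave 0 higher and 0 lower, with 1 member then having MUT mice all below WT mice.

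Leaving out each mouse in turn, the members higher at an unadjusted p under 0.05 numbered 0 to 7, those with MUT mice all below WT mice 0 to 1, all genes called higher 0 to 3 and lower 0 to 5. The shares of all tested genes at that unadjusted level are not given for these fits. Log2 fold changes ran from -0.011 to 0.090 for Ndufs3, -0.011 to 0.13 for Ndufv2, -0.087 to 0.015 for Ndufa7, -0.092 to 0.0008 for Ndufb10 and -0.25 to 0.081 for mt-Nd1. No paired analysis was possible because the mouse numbers are not shared between MUT and WT. The 37 tested members, which had passed the filter on low counts, each had at least 356 counts in every mouse.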

Other observations

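Other genes of oxidative phosphorylation gave values near those of the complex I members. Of 9 tested complex III genes, 8 had estimates above 0 (median log2 fold change 0.08), of 10 complex IV genes 8 (median 0.10), and of 15 ATP synthase genes 12 (median 0.12). The share of all tested genes above 0 was 51.7%. With library 1 alone the medians of complex III, complex IV and ATP synthase were 0.19, 0.27 and 0.22. With library 2 alone they were -0.029, -0.056 and -0.0057, and with the log2 total as a covariate -0.01, -0.02 and -0.045. None of these genes was called by edgeR's quasi-likelihood test at a Benjamini-Hochberg adjusted p under 0.05. At an unadjusted p under 0.05, 1 gene of complex IV and 1 of ATP synthase were higher in MUT, as were 4.96% of all tested genes.

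Mrpl36, a mitochondrial ribosomal protein gene that overlaps the complex I gene Ndufs6 on the opposite strand, was singled out after its values were seen. It had 136, 149, 147, 151 and 151 CPM in MUT mice, all below the 163, 196, 188 and 173 CPM of WT mice (log2 fold change -0.29, SE 0.08; edgeR quasi-likelihood, Benjamini-Hochberg adjusted p = 0.307). Ndufs6 averaged 279 ± 20.1 CPM in MUT and 277 ± 19.2 CPM in WT (SD, n = 5 and 4; log2 fold change 0.01, SE 0.09). Reads inside a stretch shared by genes on opposite strands can be told apart only by strand, and how the counting treated strand is not stated. Where these genes overlap, and whether 3'-end reads fall there, was not examined.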
